A study of Mus musculus with 2 samples.

Results

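The genes described here carry the ISG15 system, the attachment of the ubiquitin-like protein ISG15 to other proteins and its removal. They are the 5 rows of the count table whose Ensembl identifiers map to Isg15, Uba7, Ube2l6, Herc6 and Usp18, out of 22060 genes. All 5 were measured, meaning that they had a summed count of at least 20 in both libraries together, as did 11199 genes in all. RNA was sequenced from macrophages grown from the bone marrow of 8-week-old C57BL/6 mice for 7 days in M-CSF, the growth factor that turns marrow progenitors into macrophages. One library came from cells with STAT2 T403A, in which a threonine of this transcription factor is replaced by alanine, and 1 library came from wild-type (WT) cells. Both groups share the strain, the age and the culture, and neither received a treatment (0 h). Whether the substitution was on both alleles, and how many animals each library holds, is not given in the sources used here. With 1 library per genotype there is no replicate check and no p-value, so what follows describes a pair of libraries rather than the effect of a genotype.

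ISG15 is made as a precursor with a pair of ubiquitin-like folds and is joined to lysines of target proteins by a cascade like that of ubiquitin. UBA7 is the E1 enzyme that activates it, UBE2L6 is the E2 enzyme that carries it, and HERC6 is the main E3 ligase that transfers it in the mouse, the part that HERC5 plays in human cells. USP18 is a protease that takes ISG15 off its targets, and independently of that activity it binds the IFNAR2 chain of the type I interferon receptor and dampens signalling. Type I interferon raises the transcription of all these genes through ISGF3, a complex that holds STAT2 and IRF9 and binds DNA at the interferon-stimulated response element (ISRE). Macrophages express the system at a basal level that interferon increases.

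The libraries held 18658381 counts for T403A and 16033032 for WT. Marker genes were those of macrophages in both: the 8 listed markers summed to 39188 CPM (CPM is the count as a fixed proportion of the scaled library total) in T403A and 48976 CPM in WT, of which Itgam was the only one at least 2-fold lower in T403A. Other blood and stromal lineages were scarce. The 10 neutrophil markers summed to 79.6 CPM in T403A and 30.1 CPM in WT, with Ly6g and Elane at 0 counts in both. Mmp8, a neutrophil collagenase gene, made most of these sums, at 68.2 CPM in T403A and 21.4 CPM in WT. Of the 6 measured neutrophil markers 2 were at least 2-fold higher in T403A (Mmp8 and S100a9) and 1 was lower (Camp). By that limit 7.64% of all measured genes were higher and 6.21% lower. The 9 dendritic markers summed to 131 CPM in T403A and 113 CPM in WT. Tcf4 made most of these sums, at 113 CPM in T403A and 92.7 CPM in WT. Of the 4 measured dendritic markers 1 was at least 2-fold lower (Xcr1, 6 counts in T403A and 19 in WT). Markers of B cells, of T and NK cells, of stroma, of erythroid cells and of mast cells and basophils summed to at most 6.13 CPM in either library, with Pax5 and Cd3e at 0 in both. Among these, the endothelial marker Pecam1 (2 counts in T403A and 40 in WT) was at least 2-fold lower. The mast cell marker Kit (23 counts in T403A and 4 in WT) was at least 2-fold higher. The part of these markers in the results below was not tested. Fewer cells of a type and less RNA per cell cannot be told apart in such libraries.

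The ISG15 genes were lower in the T403A library, the modifier and its protease by the most. Isg15, Usp18, Herc6 and Ube2l6 passed the 2-fold limit, 4 of the 5 members, while over all measured genes 6.21% were lower and 7.64% higher in T403A by that limit. Uba7 was just short of it. Over all measured genes that is 695 lower and 856 higher, a split that became 570 lower and 1168 higher when counts were scaled by the library total, which shifts every log2 ratio by 0.19. The 5 genes together took 0.0182% of the T403A counts (95% Wilson interval 0.0176 to 0.0189) and 0.0629% of the WT counts (0.0617 to 0.0641). The median log2 ratio of the 5 was -2.43, against 0.01 for all measured genes.

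Isg15 (ENSMUSG00000035692, protein-coding) encodes the modifier and lies on chromosome 4 from 156199424 to 156200818 on the minus strand (GRCm38). It had 168 counts in the T403A library and 2414 counts in the WT library. That is 8.42 CPM in T403A (95% counting interval 7.20 to 9.80) and 161 CPM in WT (155 to 167). The gene was thus 19.1-fold lower in T403A (interval 16.3 to 22.5, log2 ratio -4.26), rank 54 from the lowest ratio among the 11199 measured genes. A processed pseudogene, AC151275.1, matches an Isg15 transcript at 95.2% identity over 482 bases, so reads of that stretch may have more than 1 place to map. These intervals, as all those that follow, cover counting error only.

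Promoter sequence is shown for Isg15, the member with the largest difference, and for Ube2l6, whose annotated start also coincides between RefSeq and GENCODE. Each run holds the 250 bases before the start of the gene, 5′ to 3′ on the strand of the gene, from RefSeq on GRCm38.p6, at chr4:156200819-156201068 for Isg15 and chr2:84798578-84798827 for Ube2l6. Capitals mark matches to the ISRE core, GAAANNGAAA or its reverse complement TTTCNNTTTC.
Isg15: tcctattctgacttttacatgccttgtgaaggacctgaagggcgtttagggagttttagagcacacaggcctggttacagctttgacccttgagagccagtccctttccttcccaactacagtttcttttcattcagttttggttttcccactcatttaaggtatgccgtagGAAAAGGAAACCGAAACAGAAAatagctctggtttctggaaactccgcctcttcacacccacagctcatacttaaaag
Ube2l6: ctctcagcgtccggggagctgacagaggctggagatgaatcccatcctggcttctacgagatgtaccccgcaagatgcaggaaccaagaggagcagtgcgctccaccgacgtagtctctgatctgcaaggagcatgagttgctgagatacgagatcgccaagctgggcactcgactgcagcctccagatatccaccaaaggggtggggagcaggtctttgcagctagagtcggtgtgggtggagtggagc
The Isg15 stretch holds 3 overlapping matches on the strand of the gene, with first bases at -78, -72 and -66 from the start and the last match ending at -57. The windows searched ran from 250 bases before to 50 bases after the start and were found for 4 of the 5 members, Usp18 being the one without an entry. Those of Uba7, Ube2l6 and Herc6 had no match to these letters, and none of the 4 matched the STAT motif TTCNNNGAA. Of 32851 such windows of all genes, 3.44% held the ISRE core and 8.30% the STAT motif. Among measured genes with a window, 80 of 360 genes with the ISRE core (22.2%) and 449 of 8578 without it (5.23%) were at least 2-fold lower in T403A. At least 2-fold higher were 7.22% of genes with the ISRE core and 7.41% without it, with median log2 ratios of -0.13 and 0.02. For the STAT motif the lower shares were 7.77% of 734 genes with it and 5.75% of 8204 without it. The higher shares were 6.81% with that motif and 7.46% without it.

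Uba7 (ENSMUSG00000032596), the E1 enzyme gene, lies on chromosome 9 from 107975505 to 107984060 on the plus strand. It had 2013 counts in T403A and 2933 counts in WT, the highest counts of the 5 genes in both libraries. Its level was 101 CPM in T403A (96.6 to 105) and 196 CPM in WT (188 to 203). The 1.94-fold lower value in T403A (1.83 to 2.05, log2 ratio -0.95) was the smallest difference among the members, and its counting interval spans the 2-fold limit. At 1.5-fold it passed, as did 11.6% of measured genes on the lower side. Gm20661, a gene on the same strand that shares 233 exon bases with Uba7, had 3 counts in T403A and 0 in WT.

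Ube2l6 (ENSMUSG00000027078), the E2 enzyme gene, lies on chromosome 2 from 84798828 to 84810335 on the plus strand. It had 681 counts in T403A and 1922 counts in WT, or 34.2 CPM (31.6 to 36.8) in T403A and 128 CPM (122 to 134) in WT. It was 3.75-fold lower in T403A (3.44 to 4.10, log2 ratio -1.91). Transcript stretches of Gm17167 (95.1% identity over 508 bases) and Ift46 (96.5% over 260 bases) resemble it, and Ift46 had 552 counts in T403A and 271 in WT.

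Herc6 (ENSMUSG00000029798), the ligase gene, lies on chromosome 6 from 57581000 to 57664632 on the plus strand. It had 447 counts in T403A and 1808 counts in WT, or 22.4 CPM (20.4 to 24.6) in T403A and 121 CPM (115 to 126) in WT. The 5.38-fold lower value in T403A (4.84 to 5.98, log2 ratio -2.43) put it between the E2 gene and the protease gene. A non-coding transcript, Gm45193, shares 1269 of its 9292 exon bases on the same strand.

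Usp18 (ENSMUSG00000030107), the protease gene, lies on the same chromosome as Herc6, from 121245906 to 121270917 on the plus strand. It had 92 counts in T403A and 1003 counts in WT, or 4.61 CPM (3.72 to 5.66) in T403A and 66.9 CPM (62.8 to 71.1) in WT. It was 14.5-fold lower in T403A (11.7 to 18.1, log2 ratio -3.86), rank 79 from the lowest ratio. The lincRNA Gm44148 overlaps 124 of its exon bases on the opposite strand, and the strand setting of the counting is not given in the sources used here. Together the members therefore spanned log2 ratios from -4.26 to -0.95, and at 4-fold 3 of the 5 passed (Isg15, Usp18 and Herc6), as did 2.44% of measured genes.

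**Figure D1:**
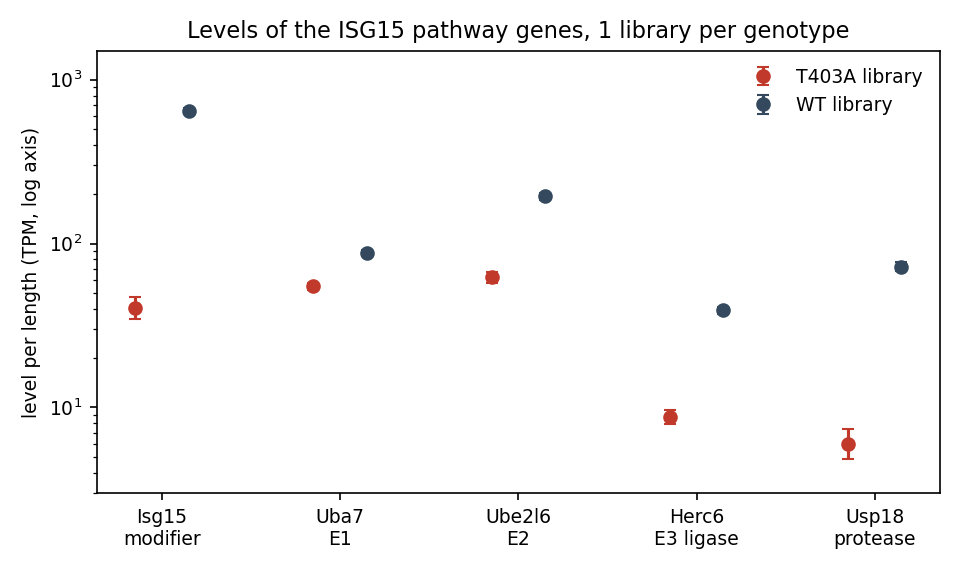
Level per length (TPM, log axis) of the 5 genes in the T403A library and in the WT library, with 95% Poisson intervals of the counts, which are smaller than the points for some values. Isg15 stands at 40.4 TPM in T403A and 642 TPM in WT, and every gene lies lower in T403A.

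Levels can be compared between genes only per length, here as TPM, which divides each count by the gene length of the table and then by the sum of such values in the library. In the T403A library the order was Ube2l6 at 62.1 TPM (95% Poisson interval 57.5 to 66.9), Uba7 at 54.7 (52.4 to 57.2), Isg15 at 40.4 (34.6 to 47.0), Herc6 at 8.76 (7.96 to 9.61) and Usp18 at 6.00 (4.84 to 7.36). In the WT library Isg15 was first at 642 TPM (616 to 668), then Ube2l6 at 194 (185 to 202), Uba7 at 88.1 (84.9 to 91.3), Usp18 at 72.3 (67.9 to 76.9) and Herc6 at 39.1 (37.3 to 41.0). Within each library no counting intervals of neighbours in the order overlapped, though those of Ube2l6 and Uba7 in T403A nearly met. The transcript of the modifier was thus the most abundant of the 5 in WT and came after those of the E1 and E2 enzymes in T403A, and Usp18 came after Herc6 in T403A and before it in WT. Among all measured genes, the Isg15 level lay at percentile 66.4 in T403A and 98.5 in WT, and the Usp18 level at percentile 20.2 in T403A and 82.2 in WT. Uba7 lay at percentile 74.3 in T403A and 85.8 in WT. The gene length is the union of all annotated exons (9292 bases for Herc6, 6692 for Uba7, 2790 for Usp18, 1996 for Ube2l6 and 756 for Isg15), so a gene whose rare exons are long has its level understated.

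**Figure D2:**
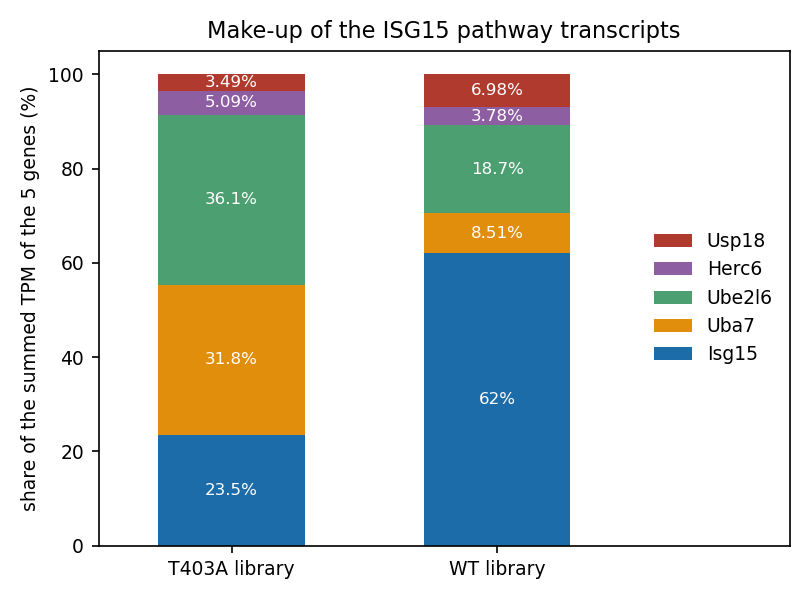
Share of the summed TPM of the 5 genes taken by each gene (stacked bars, in percent), in the T403A library and in the WT library. Isg15 makes up 23.5% in T403A and 62.0% in WT, while Uba7 makes up 31.8% in T403A and 8.51% in WT.

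The make-up of the pathway transcripts therefore differed between the libraries, in a way that does not depend on the scaling, since scaling and length cancel in a ratio of ratios. Isg15 transcripts numbered 0.739 per Uba7 transcript in T403A and 7.29 in WT, a T403A to WT ratio of 0.101 (exact 95% interval of the odds ratio 0.085 to 0.120). Ube2l6 stood at 1.13 per Uba7 transcript in T403A and 2.20 in WT, a ratio of 0.516 (0.464 to 0.574). Relative to the protease, the conjugating enzymes were higher in T403A. Uba7 transcripts numbered 9.12 per Usp18 transcript in T403A and 1.22 in WT, a ratio of 7.48 (5.99 to 9.44). The same quantity for Ube2l6 was 10.3 in T403A and 2.68 in WT, a ratio of 3.86 (3.06 to 4.92). For the ligase gene Herc6 it was 1.46 in T403A and 0.541 in WT, a ratio of 2.70 (2.12 to 3.46). The modifier and its protease kept closer to each other, with 6.74 Isg15 transcripts per Usp18 transcript in T403A and 8.88 in WT. That ratio of 0.759 had an interval of 0.578 to 1.0002, so a difference between these 2 genes was not detectable at this depth. These are amounts of RNA, and protein or conjugate levels were not measured.

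**Figure D3:**
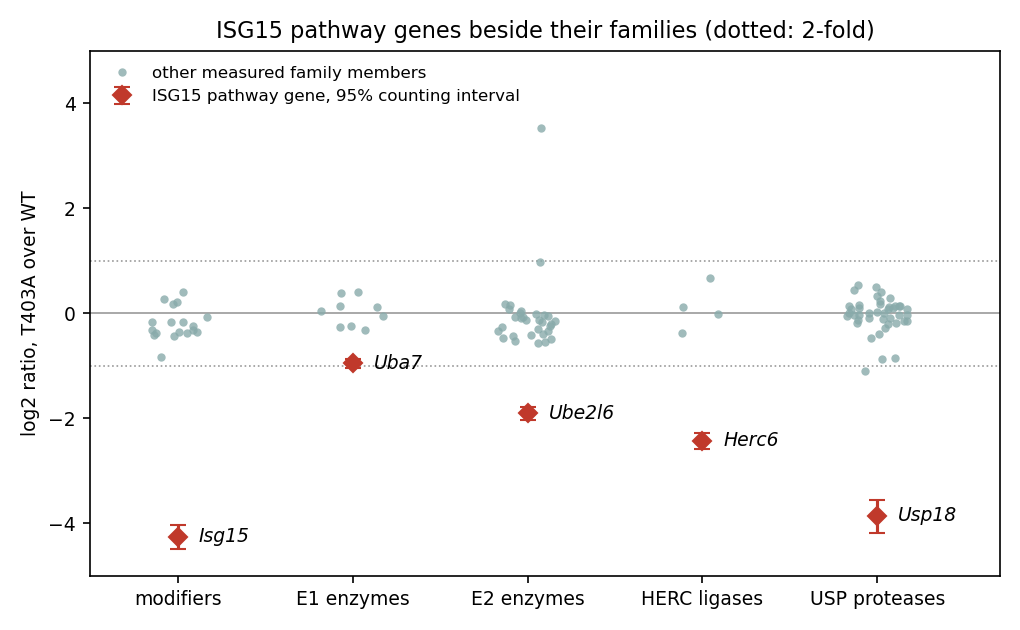
Log2 ratio of T403A over WT for each of the 5 genes (diamonds with 95% counting intervals) beside the other measured members of its family (points), with dotted lines at 2-fold. Each ISG15 pathway gene lies below all measured relatives shown in its column, Isg15 at -4.26 and Uba7 at -0.95.

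The enzymes of the ISG15 system belong to families that serve ubiquitin and other modifiers, and hardly any of those relatives differed 2-fold. Of 18 other measured modifier genes none was 2-fold lower or higher, with a median log2 ratio of -0.28. The polyubiquitin gene Ubb had a log2 ratio of -0.32 and Sumo2, a SUMO gene, one of -0.44. Gabarap, an autophagy modifier, was at 396 CPM in T403A and 353 CPM in WT. Of 9 other E1 genes none passed either, with a median of 0.04 and a range of -0.32 to 0.41. The extremes were Uba1, the main ubiquitin E1, at 355 CPM in T403A and 444 CPM in WT, and Atg7, the autophagy E1, at 81.6 CPM in T403A and 61.5 CPM in WT.

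Of 31 other measured E2 genes none was 2-fold lower and 1 was higher, with a median of -0.15 that became 0.04 with scaling by the library total. The 1 higher gene was Ube2c, the E2 of the anaphase-promoting complex, at 15.3 CPM in T403A and 1.33 CPM in WT, where its exons overlap those of Tnnc2 on the opposite strand, a gene with 0 counts in both libraries. Ube2t, an E2 of DNA crosslink repair, was next at a log2 ratio of 0.97 (0.20 to 1.79) and passed 2-fold with scaling by the library total. Ube2d3 was at 334 CPM in T403A and 414 CPM in WT, and Ube2j1, which acts at the endoplasmic reticulum, had the lowest ratio at -0.57. Ube2l3, the E2 named in the same subfamily as Ube2l6, was at 183 CPM in T403A and 192 CPM in WT, a log2 ratio of -0.07 against -1.91 for Ube2l6.

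The 4 other HERC genes had log2 ratios from -0.38 for Herc3 to 0.67 for Herc1, and none passed 2-fold. Herc1 was at 271 CPM in T403A and 170 CPM in WT. Of 43 other measured genes of ubiquitin-specific proteases 1 was lower and none higher, with a median of 0.00. The lower gene was Usp25, at 159 CPM in T403A and 341 CPM in WT (log2 ratio -1.10, interval -1.16 to -1.03), which did not pass with scaling by the library total. Usp8, the protease with the most counts in both libraries together, was at 247 CPM in T403A and 251 CPM in WT, and the highest ratio was that of Usp20 at 0.54. In total, 1 of the 105 measured relatives of these families was 2-fold lower, or 0.952%, beside 6.21% of all measured genes and 4 of the 5 ISG15 genes.

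**Figure D4:**
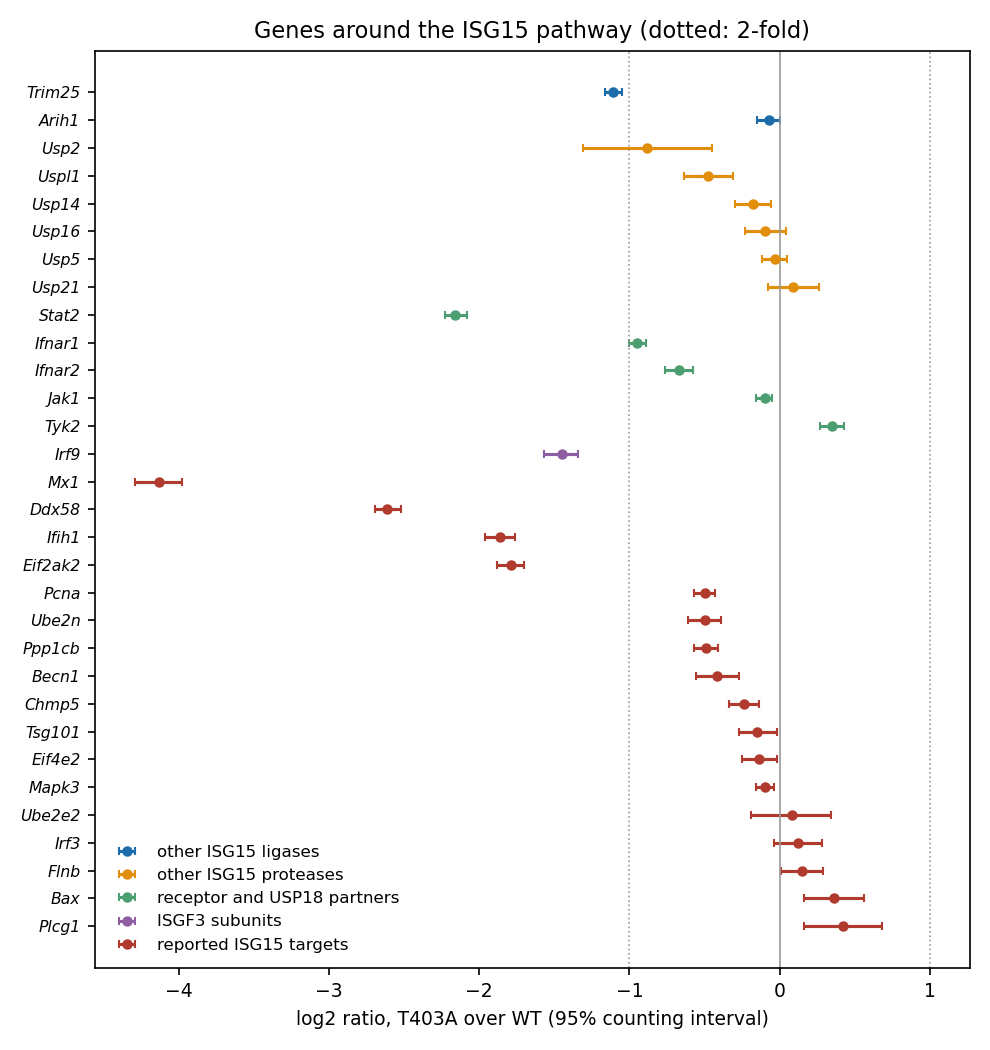
Log2 ratio of T403A over WT with its 95% counting interval for named measured genes listed around the ISG15 system, coloured by list, each gene shown once, with dotted lines at 2-fold. Mx1 and Ddx58 lie farthest to the left, at -4.13 and -2.61, while most reported targets lie between -0.50 and 0.42.

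Most other genes of enzymes reported to act on ISG15 lay within 2-fold, as did 9648 of the 11199 measured genes. Trim25, a ligase reported to attach ISG15 and an activator of RIG-I, was at 222 CPM in T403A and 477 CPM in WT, 2.15-fold lower (2.07 to 2.24), which fell short of 2-fold with scaling by the library total. Arih1, the other listed ligase, was at 156 CPM in T403A and 165 CPM in WT. Of 7 further proteases reported to cleave or bind ISG15, 6 were measured and none passed 2-fold, with a median of -0.14 that became 0.06 with scaling by the library total. Among them Usp5 was at 134 CPM in T403A and 137 CPM in WT, and Usp16 at 49.8 CPM in T403A and 53.3 CPM in WT. Usp2 had 81 counts in T403A and 112 counts in WT (log2 ratio -0.88, interval -1.31 to -0.45), and Usp13 had no count in either library.

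Genes of proteins reported to carry ISG15 fell into lower ones and ones within 2-fold. Of 20 such targets, 6 were 2-fold lower (30.0%, beside 6.21% of all measured genes) and none higher, with a median log2 ratio of -0.33, and 5 were lower with scaling by the library total. Among these were Mx1, Ddx58, Ifih1, Eif2ak2 and again Trim25, which are known as interferon-inducible genes. Mx1, an antiviral GTPase, was at 18.3 CPM in T403A and 320 CPM in WT, 17.6-fold lower (15.8 to 19.6). Eif2ak2, the double-stranded RNA kinase PKR, was at 64.6 CPM in T403A and 223 CPM in WT, 3.46-fold lower. The other 14 lay between -0.50 and 0.42. Among them were Irf3, the factor that starts interferon transcription, at 38.8 CPM in T403A and 35.7 CPM in WT, and Ube2n, an E2 for lysine-63 chains, at 65.1 CPM in T403A and 92.3 CPM in WT.

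At the receptor, where USP18 acts, the differences were smaller than in Usp18 itself. Ifnar2, the chain that USP18 binds, was at 89.0 CPM in T403A and 141 CPM in WT, 1.59-fold lower (1.49 to 1.69), with the limit that Gm21970 shares exon bases on the same strand. Ifnar1 was at 232 CPM in T403A and 447 CPM in WT, 1.93-fold lower (log2 ratio -0.95). The receptor kinase genes Jak1 and Tyk2 had log2 ratios of -0.10 and 0.35. Of these 5 listed genes only Stat2, the adaptor that brings USP18 to the receptor, passed 2-fold (20%, beside 6.21% of all measured genes). Stat2 was at 84.4 CPM in T403A and 376 CPM in WT. Whether the substitution bears on the Stat2 count was not tested. Irf9, the DNA-binding partner of STAT2 in ISGF3, was also lower, at 45.9 CPM in T403A and 126 CPM in WT, 2.73-fold (2.52 to 2.96). It shares 123 exon bases with Rnf31 on the same strand. Interferon transcripts themselves were near the detection limit. The 20 type I and type III interferon genes had 1 count in T403A and 1 count in WT in total, and 18 of them had none in either library. A count of 0 allows up to 3 counts, or 0.150 CPM in T403A and 0.200 CPM in WT.

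The genes beside the members on the chromosome did not move as a group. For comparison, 6.21% of all measured genes were at least 2-fold lower and 7.64% at least 2-fold higher in T403A. The nearest measured protein-coding gene on each side was within 2-fold for Uba7 (Traip and Inka1), Ube2l6 (Clp1 and Timm10) and Usp18 (Pex26 and Slc6a13). Higher in T403A were Pex26 (1.77-fold, 1.41 to 2.23), Slc6a13 (1.76-fold, 0.864 to 3.79), Traip (1.74-fold, 0.996 to 3.16) and Inka1 (1.10-fold). The intervals given span the 2-fold limit, and Pex26 and Slc6a13 passed it with scaling by the library total. Clp1 and Timm10 were 1.19-fold and 1.14-fold lower. Beside Herc6, Pyurf had a log2 ratio of 0.57 and Ppm1k, a mitochondrial phosphatase, was 2.14-fold higher in T403A with 421 counts, against 148 counts in WT. Isg15 was the exception, with genes at least 2-fold lower on both sides. Agrn, which encodes agrin and whose annotated span lies 1936 bases from that of Isg15, had 814 counts in T403A and 1900 counts in WT, a log2 ratio of -1.63 (-1.75 to -1.51). AW011738, 2486 bases away on the opposite strand, had 0 counts in T403A and 49 counts in WT, at least 17.0-fold lower by the exact interval and 21.7-fold lower when the T403A library is set to its floor of 3 counts.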

How the data were processed

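Per the labels' protocols, macrophage RNA was extracted with TRIzol, cleared of genomic DNA and sequenced on an Illumina instrument. The authors deposited raw counts of reads for each gene and the gene's length, per the file headers. In the submitters' processing notes the tools are HTSeq 0.9.1, HISAT2, cutadapt 1.15 and DESeq 1.30.0 and the build is GRCm38. The sources used here do not state RNA selection, annotation release, strand setting or how multiply mapped reads were handled.

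Columns were matched to samples by title. Of 22060 identifiers, 21969 had a symbol. Positions come from GENCODE M21 (GRCm38). The deposited length equalled its exon union for 96.9% of genes. Counts were scaled with TMM (edgeR 4.0.16, R 4.3.3). Ratios carry exact 95% Clopper-Pearson intervals (scipy 1.17.1), library shares Wilson intervals, and levels per length Poisson intervals. Near-identical transcripts (at least 95% identity over 200 bases) were found with blast 2.17.0. A gene was called at 2-fold or more.

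The members and lists were chosen with earlier results of these data known. The lists are the other ISG15 ligases and proteases, reported targets, receptor partners, ISGF3 subunits, interferons, 5 enzyme and modifier families and 8 cell types. Named were all members, the genes around the pathway, from each family those with the most counts and the lowest and highest ratios, the nearest measured neighbours, and for each member the 2 genes of nearest ratio. A few genes on the lists are not reported here. Other genes named were chosen after their values were seen (Ube2l3). Alternatives were 3 other scalings, TMM without the listed genes, other count minimums and other fold limits.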

Additional observations from a re-analysis of the deposited data

How the results depend on the processing

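The log2 ratios of all 5 genes stayed below 0 under total library size, median-of-ratios (DESeq2 1.42.0) and upper-quartile scaling and with TMM computed without the members and listed genes. Scaling by the library total moved Uba7 to -0.76, Ube2l6 to -1.72 and Herc6 to -2.23, beyond their counting intervals, and left 4 of 5 members past 2-fold. From TPM the log2 ratios were -3.99 for Isg15, -0.69 for Uba7, -1.64 for Ube2l6 and -2.16 for Herc6, against -4.26, -0.95, -1.91 and -2.43 from RPKM with TMM-scaled totals. Members past the limit numbered 5 at 1.5-fold and 3 at 4-fold. Of measured genes, 1300 were lower and 1698 higher at 1.5-fold, and 273 and 250 at 4-fold. With a summed count of at least 1 there were 1539 lower and 1541 higher, and at least 100 left 541 lower and 502 higher. Of the 157 listed genes beside the members, not all of them measured, 9 were lower and 1 higher at 2-fold. By that limit 6.21% of all measured genes were lower and 7.64% higher. At 1.5-fold the listed genes numbered 14 lower and 3 higher, and at 4-fold 4 lower and 1 higher. At 2-fold the listed genes higher numbered 2 with scaling by the library total and with upper-quartile scaling. They numbered 3 with a summed count of at least 1. No paired analysis was possible because each genotype has 1 library. Counting error is largest for Usp18, with 92 counts in T403A, and variation between animals or cultures is not in any interval.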

Other observations

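Genes whose T403A to WT ratio was nearest to that of each member were sought among 8172 protein-coding genes averaging 10 CPM or more. Likeness is the absolute difference of log2 ratios, and it rests on 2 libraries only, so it says little beyond the size of the difference. Nearest to Isg15 were Rtp4, an interferon-inducible gene, at 14.6 CPM in T403A and 283 CPM in WT, and Oas3, a 2'-5'-oligoadenylate synthetase gene, at 30.7 CPM in T403A and 576 CPM in WT. Only 3 genes lay within 0.1 of the Isg15 ratio. For Usp18 the count was 5, with Fpr2, a formyl peptide receptor gene, at 17.6 CPM in T403A and 257 CPM in WT, and Iigp1, an immunity-related GTPase gene, at 2.56 CPM in T403A and 37.7 CPM in WT.

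The smaller differences were shared more widely, by 22 genes for Herc6, 26 for Ube2l6 and 141 for Uba7. Nearest to Herc6 were the proteoglycan gene Sdc1 (55.4 CPM in T403A and 299 CPM in WT) and the receptor gene Gpr84 (22.4 CPM in T403A and 120 CPM in WT). Nearest to Ube2l6 were Daxx, a histone chaperone gene, at 46.7 CPM in T403A and 176 CPM in WT, and Smpdl3b at 20.9 CPM in T403A and 78.1 CPM in WT. Nearest to Uba7 were Arrdc4 at 22.8 CPM in T403A and 44.2 CPM in WT, and Mgat4a at 42.4 CPM in T403A and 82.1 CPM in WT.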
